A study of Mus musculus with 36 samples.

Results

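Ribosome-protected fragments (RPFs) from the sucrose gradient pellet of FMR1 KO brain were compared between the standard nuclease and the low nuclease preparation. The 6 libraries were chosen by their labels as FMR1 KO pellet, 3 of each preparation, out of 36 libraries that also cover WT, the polysomal fraction 5/6 and RNA-seq of brain homogenate. Each preparation pooled the brains of 10 mice on the C57BL/6 background that were 5 days old. All 6 libraries come from mice without a functional Fmr1 gene, with no agent given to the animals. In the standard nuclease preparation the buffer held 10 mM MgCl2, RNase I acted at room temperature and monosomes were collected by pelleting. In the low nuclease preparation the buffer held 2.5 mM MgCl2, RNase I of another supplier acted in the cold and monosomes were taken from fractions of a second gradient. Nuclease, magnesium, temperature and the recovery of monosomes therefore differ together. According to the methods, libraries of a condition were joined before reverse transcription and amplification, so the preparation and the joined library cannot be told apart. A pellet of whole brain holds ribosomes of every cell type, and a knockout in all cells does not separate them.

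Neuronal RNA granules are clusters of stalled ribosomes and mRNAs that travel along dendrites and axons, and dense clusters reach the bottom of a sucrose gradient. RNase I cuts the RNA between ribosomes and leaves the stretch each ribosome covers, so the count of fragments on an mRNA follows how many ribosomes sit on it and how well each fragment survives and is recovered. FMRP, the product of Fmr1, is an RNA-binding protein of these granules and of polysomes. The comparison addresses whether the mRNAs that hold pellet RPFs depend on how the RPFs were made.

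RPFs of the standard preparation pile up at fixed places of an mRNA, which the authors called as peaks. The sequences show the place of the tallest peak found within 6 nt in all 3 standard FMR1 KO libraries in 3 tubulin mRNAs, which rose strongly (Tuba8), rose weakly (Tuba1b) or did not pass the test (Tubb2b), and in 3 mRNAs that fell. Each is the 30 bases around the middle of the peak, read 5′ to 3′ on the mRNA strand from GRCm38, and the capitals mark the codon of the annotated reading frame at the middle. All 6 lie in coding exons.
Tuba8, chr6:121221333-121221362 (+): ttccatcctgagcagCTGatcacaggcaag
Tuba1b, chr15:98931970-98931999 (-): ggcttgctgcctgCTAtaccgtggtgatgt
Tubb2b, chr13:34128187-34128216 (-): aaacctactgcatcGATaatgaggctctgt
Cplx2, chr13:54379551-54379580 (+): aaggcagccctggaaCAGccctgcgaggga
Stx1a, chr5:135049828-135049857 (+): agaagatcatgatcATCatttgctgtgtga
Purb, chr11:6475264-6475293 (-): cgccaagctcatcGACgactacgggggcga
The marked codon is codon 92 of 449 in Tuba8, 318 of 451 in Tuba1b and 203 of 445 in Tubb2b. It is codon 88 of 134 in Cplx2, 269 of 288 in Stx1a and 203 of 324 in Purb. Peak heights, which are not scaled between libraries, were 131, 68 and 108 at the Tuba8 place in standard replicates 1 to 3. At the Tubb2b place they were 3959, 1656 and 2526. These peaks describe the standard preparation, and peaks of the low nuclease libraries were not analysed here.

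The labels were checked on Fmr1 in the 12 pellet libraries of both genotypes. Fmr1 had 5.03 to 7.53 CPM (counts scaled to the normalized library size) in the 6 FMR1 KO libraries and 48.8 to 82.0 CPM in the 6 WT libraries, which did not overlap. The 6 FMR1 KO libraries held 23127381 to 38758634 counts, and the totals did not separate the preparations. A single gene, Cdk8, took 57.5%, 63.4% and 46.0% of the counts in the standard libraries and 4.03%, 4.67% and 3.55% in the low nuclease libraries. The means were 55.7% ± 8.85 and 4.08% ± 0.566 (SD, n = 3; two-sided p = 0.1 by exact permutation, the smallest that 3 against 3 allow). Cdk8 was left out, after which 12375673 to 15385840 counts remained in the standard libraries and 26506939 to 37133517 in the low nuclease libraries. The 10 genes with most of the remaining counts held 20.6% ± 2.65 of them in the standard and 12.9% ± 0.937 in the low nuclease libraries (SD, n = 3; two-sided p = 0.1 by exact permutation). Counts agreed less across than within preparations, with Pearson's r of log CPM across genes of 0.845 to 0.906 between preparations, 0.926 to 0.964 among standard and 0.948 to 0.961 among low nuclease libraries. Standard replicate 2 stood apart from standard replicates 1 and 3 on the second axis of a distance plot, which held 20.5% of the variance.

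Of 14515 protein-coding genes tested, 2457 differed between the preparations (16.9%, quasi-likelihood test of edgeR, Benjamini-Hochberg adjusted p below 0.05). RPFs of 1074 genes were higher (7.4%) and of 1383 lower (9.53%) in the standard preparation, and fold changes are given as log2 of standard over low nuclease throughout. The median log2 fold change was 0.78 among the genes that rose and -1.25 among those that fell, Rises by more than 1 on the log2 scale were seen in 360 genes and falls by more than 1 in 873. Beyond 3 on that scale, 131 genes rose and 190 fell. All 3 standard libraries lay above all 3 low nuclease libraries in 3019 genes (20.8%) and below them in 3254 (22.4%). Scaling decides much of the direction: with library size alone in place of TMM, the median of all genes moved from -0.016 to -0.52 and 4036 genes passed, 294 higher and 3742 lower. The count also rested on single libraries. It was 490, 1418 and 1071 without standard replicates 1, 2 and 3, and 4528, 595 and 580 without low nuclease replicates 1, 2 and 3. In all 9 fits that left out libraries, 103 of the 2457 genes passed in the same direction, 34 higher and 69 lower, and these same genes also passed with library size alone, with DESeq2 and with a replicate block. With 3 libraries in a group, the p-values measure the spread between these libraries.

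**Figure D1:**
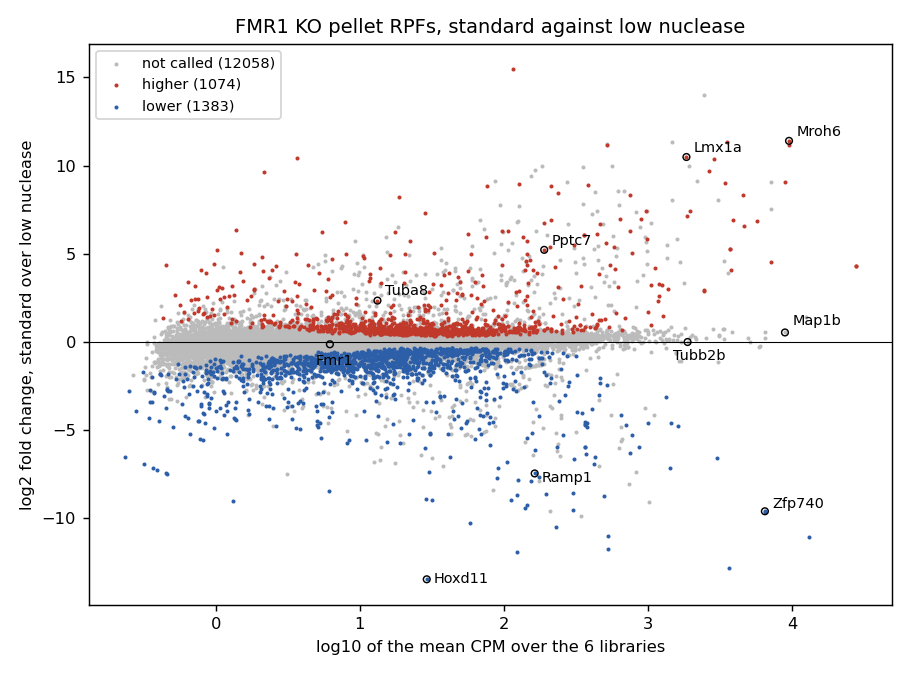
Each point is a gene, with the log10 of its mean CPM over the 6 FMR1 KO pellet libraries on the x axis and its fitted log2 fold change, standard over low nuclease, on the y axis. Red points are the 1074 genes called higher, blue points the 1383 called lower and grey points those not called, and circles mark genes described in the text, with fitted values of genes at 0 counts in a preparation depending on the prior count.

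The rise with the smallest adjusted p was that of Pptc7 (ENSMUSG00000038582, chr5:122284365-122324281), which encodes a mitochondrial protein phosphatase. It had 376, 386 and 350 CPM in the standard libraries and 9.08, 10.3 and 10.4 CPM in the low nuclease libraries. It rose by 5.22 ± 0.146 on the log2 scale (standard error; edgeR, adjusted p = 2.8e-04), with no overlap and little spread within either preparation. No peak was called on Pptc7 in any standard library. Its log2 fold change lay between 4.70 and 5.30 under every alternative that could be fitted. The level was less even elsewhere, at 332.5, 7.70 and 6.31 CPM in the standard WT pellet libraries and 236.5, 325.4 and 8.72 CPM in the standard FMR1 KO fraction 5/6 libraries. Only 1 of 3 and 2 of 3 of these libraries were thus high.

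Tuba8 (ENSMUSG00000030137, chr6:121210696-121226854), an alpha-tubulin of restricted expression, was the only one of the 4 rises named for their adjusted p that carried called peaks. Its levels were 20.3, 22.2 and 23.9 CPM in the standard and 4.22, 4.45 and 4.39 CPM in the low nuclease libraries. Its rise by 2.34 ± 0.118 (standard error; edgeR, adjusted p = 8.8e-04) compares with 2.60 in the WT pellet and 1.65 in FMR1 KO fraction 5/6. The difference between the preparations in homogenate RNA-seq was 0.49 on the log2 scale.

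Among the other large rises, Lmx1a (ENSMUSG00000026686, chr1:167689237-167848741), a homeodomain transcription factor of midbrain dopaminergic neurons, had 2367, 5497 and 3197 CPM in the standard and 2.60, 2.14 and 2.98 CPM in the low nuclease libraries. Creb3l1 (chr2:91982328-92024502), a transcription factor anchored in the endoplasmic reticulum, had 7047, 4582 and 5679 CPM against 3.07, 5.80 and 4.24. Harbi1 (chr2:91710852-91721545), a nuclease derived from a transposase, had 6479, 4128 and 5185 CPM against 7.63, 6.71 and 5.04. The log2 fold changes were 10.48, 10.37 and 9.67. All 3 genes lacked a called peak in the standard libraries, all 3 passed in every fit that left out libraries, and the groups did not overlap. Gpr139, an orphan G protein-coupled receptor of the brain, had 122, 134 and 76.0 CPM against 1.08, 1.96 and 1.62 and likewise no peak (log2 fold change 6.14). In the standard WT pellet libraries Lmx1a had 2525, 4.12 and 4.10 CPM and Gpr139 had 59.4, 0.716 and 2.00 CPM, high in 1 of 3 libraries, whereas Creb3l1 had at least 3128 and Harbi1 at least 3023 CPM in all 3. In the standard FMR1 KO fraction 5/6 libraries Creb3l1 had 9990, 6971 and 103 CPM and Harbi1 had 9315, 6607 and 97.1 CPM, both low in replicate 3. These genes lie near each other on chromosome 2 and their counts ran together, at 99631, 36969 and 68527 for Creb3l1 and 91601, 33301 and 62561 for Harbi1 in the standard pellet libraries. Whether they are separate rises was not tested.

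Other rises of the largest size rested on uneven libraries. Mboat1, a lysophospholipid acyltransferase, had 9.27, 7818 and 13170 CPM in standard replicates 1 to 3 and 2.26, 2.23 and 3.52 CPM in the low nuclease libraries. Standard replicate 1 was thus close to the low nuclease level, and the call held in 2 of the 9 fits that left out libraries. Gal3st2, a sulfotransferase of galactose residues, had 6177 counts in the standard and 0 in the low nuclease libraries, at least 6610-fold higher against a floor of 3 counts over the group. Its standard levels were 54.9, 579 and 60.3 CPM, with replicate 2 highest.

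Fam83h and Mroh6 on chromosome 15 had almost equal counts in 4 of the 6 libraries, those where both had at least 100 counts, although 112.3 kb separate them. Fam83h, which organizes keratin filaments, had 224879, 196764 and 197374 counts in the standard and 47, 743 and 74 in the low nuclease libraries. Mroh6 had 226236, 198541 and 197917 counts against 5, 707 and 12, within 5% of Fam83h in the 3 standard libraries and low nuclease replicate 2. The fitted log2 fold changes were 11.15 and 11.40. The counts of such pairs cannot be assigned to either gene here. Among 10783 genes with at least 100 counts in 3 or more libraries, 94 such near-equal pairs on a chromosome were found, 80 of overlapping genes and 14 of genes that do not overlap, with 164 genes in all. They included 20 of the 1074 genes that rose and 21 of the 1383 that fell, and leaving all 164 out gave 2417 called genes, an alternative added after the data were seen.

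Among the falls, Zbtb7b (ENSMUSG00000028042, chr3:89377644-89394776), a zinc finger factor known for its role in CD4 T cells, had the smallest adjusted p of the genes named. Its levels were 2.26, 2.23 and 1.91 CPM in the standard and 79.5, 94.2 and 66.9 CPM in the low nuclease libraries (log2 fold change -5.23, standard error 0.184, adjusted p = 5.7e-04 from edgeR). Ramp1 (chr1:91179822-91225196), which forms the receptor for the neuropeptide CGRP with its partner, had 1.70, 2.23 and 1.66 CPM against 307, 257 and 410 (log2 fold change -7.45). Zfp740 (chr15:102203249-102215606), a zinc finger protein, had 18.2, 16.2 and 15.7 CPM against 13860, 11090 and 13790 (log2 fold change -9.60). Each of these 3 genes fell in every fit that left out libraries and lacked a called peak in the standard libraries. In the low nuclease WT pellet libraries Zfp740 had 15820 CPM in replicate 3 and at most 23.7 CPM in the others, while Zbtb7b had at least 50.6 and Ramp1 at least 229.6 CPM in all 3.

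Hoxd11, a Hox factor of limb and caudal patterning, had 0 counts in the standard and 6055 in the low nuclease libraries, at least 629-fold lower against 3 counts over the group. Its counts equalled those of Hoxd3 within 5% in each low nuclease library, so they cannot be assigned to Hoxd11. The same holds for 1810046K07Rik and its neighbours Btg4 and Layn on chromosome 9, where 1810046K07Rik had 2 counts against 25226, a 3930-fold difference (exact Clopper-Pearson 95% interval 1090 to 32500). Foxe1, a thyroid transcription factor, had 3121, 8.32 and 50.7 CPM in low nuclease replicates 1 to 3 and 0.166 to 0.620 CPM in the standard libraries, and Ggn, a gene of spermatogenesis, had 1644, 3.11 and 1519 CPM against 0.372 to 0.746. For Foxe1 and Ggn, low nuclease replicates disagreed by more than 10-fold, and the calls held in 2 and 3 of the 9 fits that left out libraries.

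**Figure D2:**
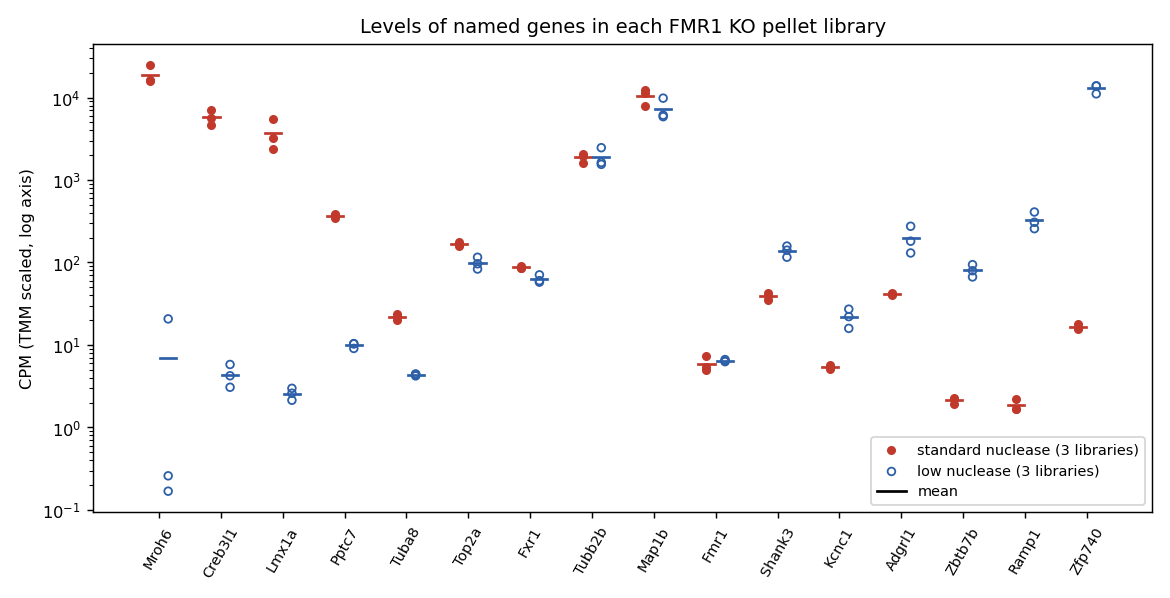
CPM of 16 genes in each FMR1 KO pellet library on a log axis, with filled red points for the 3 standard and open blue points for the 3 low nuclease libraries, and bars for the group means. The preparations are apart in the genes at both ends, while Tubb2b, Map1b and Fmr1 in the middle overlap.

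A spread of more than 10-fold within a preparation was found in 17.1% of the 321 called genes whose log2 fold change exceeded 3 in size. It was found in 0 of the 2136 other called genes and in 3.92% of the 12058 genes not called.

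Large rises often lacked called peaks. Of the 131 genes that rose by more than 3 on the log2 scale, 84 had a mean of at least 50 CPM in the standard libraries, and 66 of these 84 (78.6%) had no peak in any standard library. At the same level, 13.6% of the 2710 genes with a log2 fold change between -1 and 1 had no peak. The share was 57.7% of 26 genes that rose by 2 to 3 and 19.6% of 46 that rose by 1 to 2. Of 32 genes at this level that fell by more than 1, 21.9% had no peak. Tmem38b, a potassium channel of the endoplasmic reticulum named after its values were seen, had the tallest peak of any of the 84, with heights of 14183, 5246 and 20030. Among all genes tested, 64.7% had no peak and 20.7% had one in all 3 standard libraries. A peak in all 3 was present in 34.4% of the genes that rose and 11.1% of those that fell. Restricted to the 3000 genes with a peak in all 3 standard libraries, an alternative added after the data were seen, 778 genes passed, 351 higher and 427 lower. Peaks and standard counts come from the same libraries and are not independent.

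**Figure D3:**
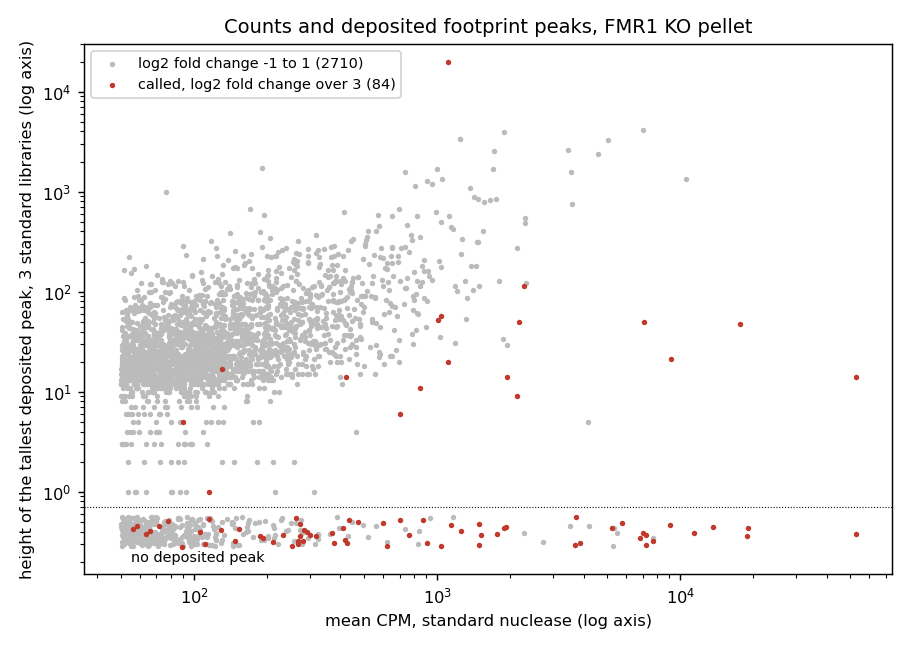
For genes with a mean of at least 50 CPM in the standard libraries, the x axis gives that mean and the y axis the height of the tallest peak deposited for any standard FMR1 KO pellet library, both on log axes. Genes without a peak are spread below the dotted line, where 66 of the 84 red genes (rise by more than 3 on the log2 scale) and 369 of the 2710 grey genes (change of at most 1) lie.

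Genes without a large change gave the reference for these sizes. Tubb2b, the beta-tubulin with the highest peaks shown above, had 2063, 1614 and 1954 CPM in the standard and 2465, 1630 and 1549 CPM in the low nuclease libraries (log2 fold change -0.003, adjusted p = 0.995 from edgeR). Map1b, a microtubule-associated protein and classical FMRP target, had 12510, 7902 and 11250 CPM against 9829, 5861 and 6107, a log2 fold change of 0.54 ± 0.423 with overlapping groups (standard error; edgeR, adjusted p = 0.37). Fmr1 itself had 5.38, 7.44 and 4.97 CPM against 6.28, 6.65 and 6.42. Fxr1 and Fxr2, the paralogues of FMRP, passed narrowly with log2 fold changes of 0.48 and 0.49 (adjusted p = 0.0397 and 0.045 from edgeR), and with library size alone they turned to -0.02 and -0.01. Fxr1 had 91.7, 86.0 and 85.2 CPM in the standard and 70.8, 57.8 and 60.2 CPM in the low nuclease libraries, without overlap.

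Gene lists were described by their counts and medians beside those of all 14515 genes tested, of which 7.4% rose, 9.53% fell and the median was -0.016. With library size alone every list median moved down, and of the lists with a median above 0 only that of the cell cycle stayed above it. Members beyond the 4 most abundant of a list are named after their values were seen. Lists of channels, synaptic proteins and adhesion receptors are given first. Of 37 genes for channels and ion pumps, 14 fell, 3 rose and the median was -1.04. The falls covered sodium, calcium and potassium channels, among them Scn8a (log2 fold change -1.68), Kcnc1 and Kcnq3 (-2.01). Kcnc1, a potassium channel of fast-spiking neurons, had 5.16, 5.70 and 5.47 CPM in the standard and 15.9, 27.2 and 22.1 CPM in the low nuclease libraries, without overlap. The calcium pump Atp2a2, which refills the endoplasmic reticulum, rose by 1.42, and the inositol trisphosphate receptor Itpr2 by 0.61. Cacna1d, an L-type calcium channel without a called peak, rose by 4.09, whereas its log2 fold change in the WT pellet was 0.48.

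Postsynaptic scaffolds and glutamate receptors had 9 falls and 1 rise among 34 genes, with a median of -0.77. Shank3, a master scaffold of the postsynaptic density, had 34.8, 39.4 and 43.3 CPM in the standard and 158, 141 and 116 CPM in the low nuclease libraries (log2 fold change -1.82, standard error 0.159, adjusted p = 0.0028 from edgeR). Shank1 fell by 1.26, Dlgap3 by 1.29 and Homer1 by 0.72 on the log2 scale. Among receptor subunits, Grin2d had 19.3, 28.9 and 28.9 CPM against 928, 884 and 386 (log2 fold change -4.83), Grin2b fell by 1.95, Grm5 by 1.33 and Grik5 by 1.76. The low nuclease counts of Grin2d, 27469, 30155 and 17876, were close to those of the overlapping genes Sec1 and Ntn5 nearby on chromosome 7, with 27390, 29337 and 17307 for Sec1, so they cannot be assigned to Grin2d. Shank3 passed in every fit that left out libraries. The rise was that of the kinase Camk2g, with 980, 3899 and 1236 CPM against 419, 420 and 158, which passed in no fit that left out libraries. The kinase subunits Camk2a and Camk2b, with log2 fold changes of -0.28 and -0.30, did not pass.

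Of 44 cell adhesion and axon guidance receptors, 7 fell, none rose and the median was -0.77. They were Nrxn2, Nlgn2, Adgrl1, Adgrl3, Plxna1, Plxna2 and Plxna4, that is neurexin and neuroligin adhesion partners, latrophilins and semaphorin receptors. Adgrl1, a latrophilin, had 40.6, 42.5 and 41.5 CPM in the standard and 130, 275 and 181 CPM in the low nuclease libraries (log2 fold change -2.24). App, the amyloid precursor, had 179, 144 and 168 CPM against 166, 450 and 337 and did not pass.

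For the adhesion receptors, low nuclease replicate 1 lay closest to the standard libraries. The summed CPM of the 44 receptors was 2555, 1902 and 2142 in the standard and 2295, 4602 and 3480 in low nuclease replicates 1 to 3, so replicate 1 lay within the standard range. For the 37 channels and pumps it was 1839, 2543 and 1840 against 1366, 2991 and 3419, and for 22 neuropeptides and secretory granule proteins 537, 565 and 518 against 411, 979 and 769. For the 34 postsynaptic genes it was 3706, 6710 and 4109 against 4835, 5480 and 4053, with all 3 low nuclease libraries within the standard range. Without low nuclease replicate 1, the falls rose in number to 28 of 37 channels and pumps, 28 of 44 receptors and 18 of 34 postsynaptic genes. Without low nuclease replicates 2 and 3 in turn they numbered 5 and 2, 3 and 1, and 7 and 7 in the same order. Without standard replicates 1, 2 and 3 in turn they numbered 1, 4 and 2 for channels and pumps, 1, 2 and 2 for receptors and 6, 9 and 6 for postsynaptic genes. Of all genes, 2622 of 14430 fell without low nuclease replicate 1. Without low nuclease replicates 2 and 3 in turn, 426 of 14225 and 414 of 14233 fell. Without standard replicates 1, 2 and 3 in turn, 291 of 15198, 833 of 15163 and 560 of 15202 fell. The medians of the 3 lists stayed below 0 in all of these fits and with library size alone.

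Secreted proteins had negative medians with few calls. Of 32 extracellular matrix genes, 1 fell, 3 rose and the median was -0.53, with Nid1 the fall and Col18a1, Fbn1 and Tnc the rises. Among the 22 neuropeptide and secretory granule genes the median was -0.67 and only Pcsk1n passed, higher by 1.27. The Pcsk1n call did not hold in all fits that left out libraries. Of 6 tested mitochondrially encoded mRNAs, which are made by mitochondrial ribosomes, mt-Nd5 fell by 2.24 and all 6 fold changes lay below 0, at summed levels of at most 3.20 CPM in the standard and at least 5.50 CPM in the low nuclease libraries. The 75 nuclear-encoded subunits of the respiratory chain had 8 rises, no falls and a median of 0.17. Each of these 8 calls held in at most 3 of the 9 fits that left out libraries.

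The list with the largest share of rises was that of the cell cycle and DNA replication, with 15 rises and no fall among 30 genes and a median of 0.55. They included kinetochore and spindle genes (Cenpe, log2 fold change 1.96, Cenpf, 1.29, Aspm, 1.07, Kif20b, 1.05), the topoisomerase Top2a (0.75), ribonucleotide reductase (Rrm1, 0.74, Rrm2, 0.62) and helicase subunits (Mcm3, 0.51, Mcm7, 0.39). Cenpf had 38.6, 34.1 and 33.9 CPM in the standard and 10.8 to 16.8 CPM in the low nuclease libraries. Top2a had 162, 157 and 177 CPM against 116, 83.3 and 96.5, also without overlap. The rises depended on the scaling, since with library size alone 2 genes passed and the median was 0.06. They numbered 0, 9 and 4 without standard replicates 1, 2 and 3 and 19, 1 and 1 without low nuclease replicates 1, 2 and 3. Of all genes, 199, 585 and 511 rose in the former fits and 1906, 169 and 166 in the latter. These all-gene counts are also the background for the rises of the lists below.

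Markers of astrocytes and radial glia, the latter being the progenitors of the developing brain, had 5 rises and no fall among 13 genes and a median of 0.33. Nes had 78.4, 51.2 and 51.2 CPM in the standard and 27.8, 14.2 and 16.2 CPM in the low nuclease libraries (log2 fold change 1.64). Vim rose by 1.00, Fabp7 by 1.04, Hes5 by 0.95 and Aldh1l1 by 0.66. Of the 13 markers 9 had a fold change above 0 and the others went the other way. In 2 markers all standard libraries lay below all low nuclease libraries. In RPFs of whole brain, fewer cells of a type and fewer ribosomes on its mRNAs per cell cannot be told apart. With library size alone the median of the list was -0.20, with 1 rise and 2 falls, and the rises numbered 1, 2 and 1 without standard replicates 1 to 3 and 6, 0 and 0 without low nuclease replicates 1 to 3. The summed CPM was 2072 to 2440 in the standard and 1535 to 2249 in the low nuclease libraries, which overlap.

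Markers of the other cell types had fewer calls. Among 16 neuronal markers, Rbfox3 and Slc17a7 fell by 0.59 and 1.34 and none rose, while 10 of the 16 had a fold change above 0 and the median was 0.26, or -0.23 with library size alone. The summed CPM was 9456 to 10050 in the standard and 7077 to 8584 in the low nuclease libraries. Of 14 oligodendrocyte lineage markers only Mog passed, at 0.175 against 1.66 CPM on average, and the median was -0.86. None of 11 microglia, 13 endothelial, pericyte and meningeal or 9 choroid plexus and ependymal markers passed by edgeR, with medians of 0.01, -0.71 and -0.40. At an unadjusted p below 0.05 there were 2, 2 and 0 of them, and DESeq2 called 1, 1 and 0. A single library stood out for C1qb, with 91.5 CPM in low nuclease replicate 1 against 3.81 to 6.25 CPM in the others. Of 7 erythroid markers, Hbb-bs and Alas2 fell, at 0.637 to 3.23 against 6.25 to 7.76 CPM for Hbb-bs.

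Motor proteins and very large cytosolic proteins had medians above that of all genes. Of 34 motor proteins, 7 rose and 1 fell, with a median of 0.32. The heavy chain of cytoplasmic dynein, Dync1h1, had 1799, 1169 and 1647 CPM in the standard and 577, 413 and 409 CPM in the low nuclease libraries (log2 fold change 1.72, standard error 0.269, adjusted p = 0.0147 from edgeR). The myosins Myh10, Myo6, Myh9 and Myo10 rose by 1.37, 0.98, 0.81 and 0.70, the kinesin Kif5a by 0.95, and the light chain Dynll2 fell by 0.82. All 27 giant ubiquitin ligases and BEACH or VPS13 proteins had a fold change above 0, and 4 rose, among them Herc2 by 0.95 and Ubr4, with 2012, 2536 and 1288 CPM against 474, 359 and 355. With library size alone the medians were -0.16 and -0.09. The rises of motor proteins numbered 1, 5 and 5 without standard replicates 1, 2 and 3 and 16, 0 and 2 without low nuclease replicates 1, 2 and 3, and those of the giant proteins 0, 5 and 1 and 12, 0 and 0.

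Of 31 spectrins, ankyrins and actin regulators, 5 rose and none fell. Plec, the cytolinker plectin, had 7601, 10880 and 4723 CPM in the standard and 66.1, 63.0 and 63.3 CPM in the low nuclease libraries (log2 fold change 6.91), without a called peak. Dbn1, an actin-binding protein of dendritic spines, rose by 1.26. Tuba8, Tuba1b and Tubb6 rose among 15 tubulins, Tuba1b by 0.42 with 76.2, 76.9 and 76.0 CPM against 61.6, 57.2 and 53.0. The Tuba1b call held in 1 of the 9 fits that left out libraries. Of the 15 tubulins 11 had a fold change above 0, and in 1 all standard libraries lay below all low nuclease libraries. Their summed CPM overlapped, at 17630, 15168 and 17488 in the standard and 17444.5, 16259 and 12653.5 in the low nuclease libraries. Of 33 microtubule-associated and growth cone genes, Stmn3 and Stmn4 rose and Marcksl1 fell. Among 34 presynaptic genes the calls went both ways. The syntaxin Stx1a, a core fusion protein, had 145, 176 and 142 CPM against 700, 848 and 792 (log2 fold change -2.34), the complexin Cplx2 fell by 0.92, and the priming factor Unc13a rose by 1.66.

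Lists of the translation machinery had calls in both directions. Of 80 cytosolic ribosomal protein genes 8 rose and 6 fell, with a median of 0.05, while Rps12 had 10.6, 11.3 and 7.54 CPM against 39.5, 47.5 and 36.1 (log2 fold change -2.07) and passed in every fit that left out libraries. Ribosomal protein genes have processed pseudogenes, so their counts depend on how shared reads were treated. Of 40 translation factors 4 rose and 2 fell with a median of 0.19, with Eif3a, the largest subunit of initiation factor eIF3, higher by 1.25 and the cap-binding Eif4e lower, at 23.5 to 185 CPM in the low nuclease libraries. Of 26 factors of stalling and ribosome rescue, which had a median of 0.27, Gtpbp1, a GTPase that acts on stalled ribosomes, had 84.7, 81.9 and 83.5 CPM against 296, 280 and 346 (log2 fold change -1.88), and Edf1, Gigyf2 and N4bp2 rose by 1.10, 0.76 and 1.14. Among 40 RNA-binding proteins of neuronal granules, Fxr1 and Fxr2 rose, Purb and Cpeb3 fell by 1.02 and 0.42, and the median was 0.23. None of 28 chaperones passed by edgeR, where 5 had an unadjusted p below 0.05 and DESeq2 called 6 higher and 1 lower, against 4 of 54 replication-dependent histones that rose and 1 of 33 chromatin regulators that fell.

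mRNA lists that the study used were described in the same way. Of 184 mRNAs resistant to ribosome run-off (Shah), 5 rose and 12 fell with a median of -0.28. Of 262 FMRP CLIP targets (Maurin), 11 rose and 52 fell with a median of -0.14, and of 748 targets of the Darnell list 21 rose and 158 fell with a median of -0.19. In either direction 9.24% of the Shah, 24.0% of the Maurin and 23.9% of the Darnell mRNAs passed, against 16.9% of all genes. The 103 genes that passed in all 9 fits that left out libraries held 0 Shah, 0 Maurin and 5 Darnell mRNAs. Summed CPM of the Darnell list was 201904, 195941 and 199695 in the standard and 191603.5, 174568 and 157993 in the low nuclease libraries. For Maurin it was 108335, 96849 and 103897 against 99362, 86341 and 82029. For Shah it was 107724, 97163 and 107022.5 against 98266, 93516 and 79709.

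**Figure D4:**
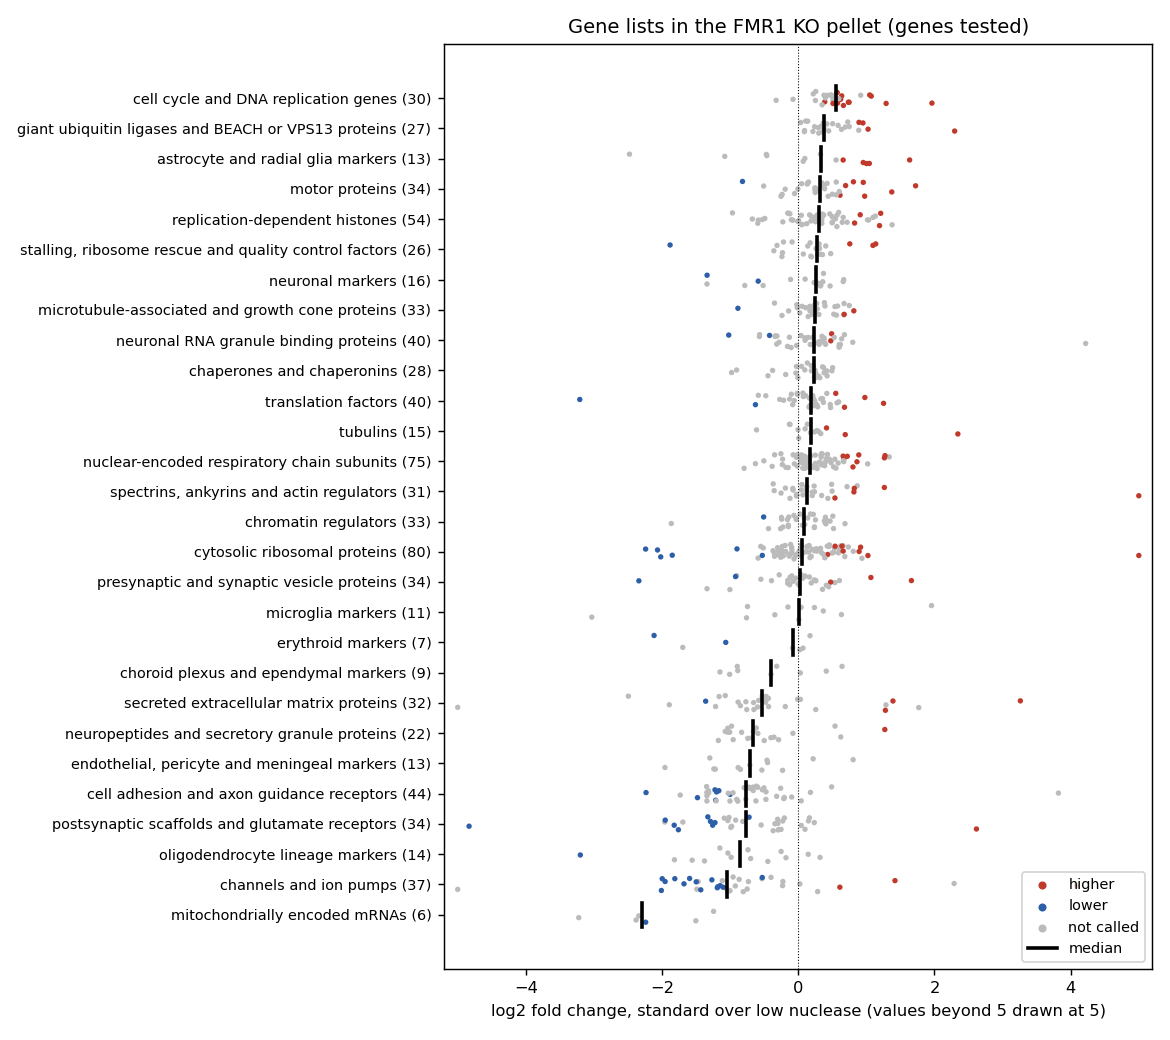
Each point is a member of a gene list with its log2 fold change, standard over low nuclease, on the x axis, drawn at 5 where beyond it in size. Points are red where the gene rose, blue where it fell and grey where it was not called, with black bars at the medians, which run from -2.29 for mitochondrially encoded mRNAs and -1.04 for channels and ion pumps to 0.55 for cell cycle genes.

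Transcript features differed between the genes that rose and those that fell. Median 3′ UTR length was 555 bases for genes that rose, 1230 for those that fell and 771 for all genes tested, from 1 GENCODE transcript per gene. Median GC content of the coding sequence was 51.5%, 55.6% and 53.2% in the same order, and median coding length 1326, 1284 and 1401 bases. Across 14341 genes, which share their libraries and are not independent, Spearman's correlation of the log2 fold change was -0.154 with 3′ UTR length, -0.167 with coding GC content and 0.049 with coding length. It was 0.23 with the mean CPM of 14515 genes. A match of at least 30 nt to ribosomal RNA was present in 1.02% of the genes that rose, 1.08% of those that fell and 0.83% of all. The ribosomal RNA sequences searched may not hold the whole 28S rRNA, so these shares may be too low.

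The same contrast in the WT pellet, which shares no library with it, was set beside it gene by gene. Of the 1074 genes that rose in FMR1 KO, 1057 had a positive fold change in WT with a median of 0.66, and of the 1383 that fell, 1358 had a negative one with a median of -1.35. Across 14515 genes Spearman's correlation of the fold changes was 0.799. The difference of the contrast between the genotypes was tested in the 12 pellet libraries, where 2 of 15013 genes passed by edgeR (0.0133%), Ankrd6 and Ppil1. Ppil1, a peptidyl-prolyl isomerase of the spliceosome, had 163, 88.7 and 100 CPM in the standard FMR1 KO libraries and 9.17 to 15.6 CPM in the other 9 (difference of log2 fold changes 3.11, standard error 0.335, adjusted p = 0.0212 from edgeR). Ankrd6, a regulator of Wnt signalling, had 171, 216 and 143 CPM in the low nuclease WT libraries and 7.20 to 13.2 CPM in the other 9 (3.74, standard error 0.220, adjusted p = 1.3e-04 from edgeR). For Fmr1 the difference was -0.78 (adjusted p = 0.709 from edgeR). DESeq2 called 91 genes, and 10 to 21 passed when a replicate number was left out. List medians in WT were -3.04 for mitochondrially encoded mRNAs, -1.44 for channels and pumps and -1.37 for adhesion receptors. The cell cycle median was 0.36.

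**Figure D5:**
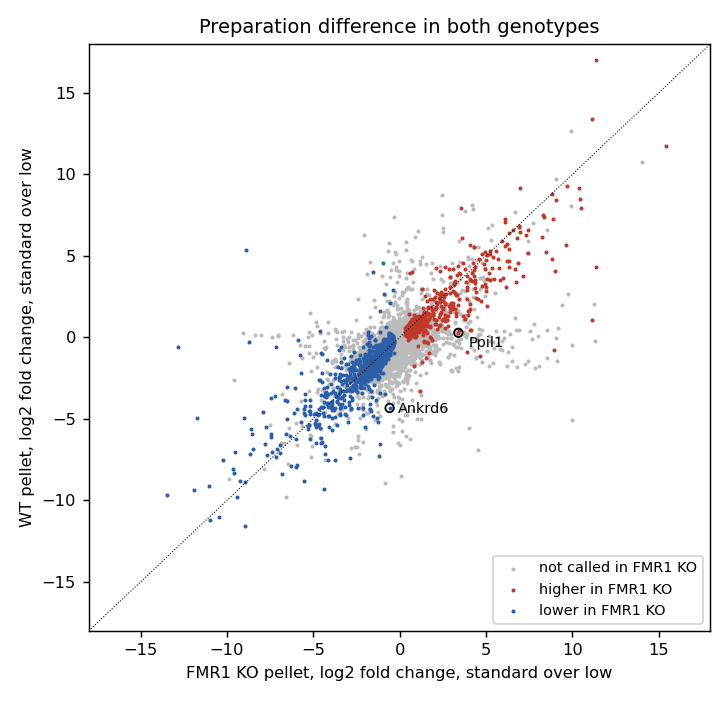
Each point is a gene with its log2 fold change, standard over low nuclease, in the FMR1 KO pellet on the x axis and in the WT pellet on the y axis, red where it rose and blue where it fell in FMR1 KO. The 2 circled genes, Ppil1 and Ankrd6, are those whose contrast differed between the genotypes, and the dotted line marks equal values.

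In fraction 5/6 of FMR1 KO brain the preparations were compared in the same way. Of the genes that rose in the pellet, 1048 of 1074 had a positive fold change there with a median of 0.81, and of those that fell 1343 of 1383 a negative one with a median of -1.01. Spearman's correlation across 14515 genes was 0.763, and pellet and fraction may come from the same gradients. A single gene of 15088 (0.00663%) differed between pellet and fraction 5/6 in its contrast by edgeR. Cers2, a ceramide synthase of very long chains, had 434, 542 and 256 CPM in the standard pellet libraries and at most 5.49 CPM in the other 9 FMR1 KO RPF libraries of this test (difference of log2 fold changes 7.43, standard error 0.709, adjusted p = 0.0119 from edgeR). In the standard WT pellet libraries Cers2 had 149, 1.43 and 2.73 CPM, high in 1 of 3. DESeq2 called 58 genes.

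Homogenate RNA-seq has no nuclease step, and its libraries are labelled by the same preparations as the RPFs. The labels do not say whether RNA and RPFs came from the same animals. The low preparation libraries stood apart before any test, since 10 genes held 85.0% and 83.4% of the counts of replicates 2 and 3 without Cdk8, against 4.10% in replicate 1 and 4.97% to 6.49% in the standard libraries. Of 16239 genes, 3603 differed (22.2%), 1209 higher (7.45%) and 2394 lower (14.7%). With library size alone 9 genes passed and the all-gene median moved from -0.056 to 1.48, so RNA-seq directions hold for the TMM scale only. Without replicate 2 none passed by edgeR, where 2583 had an unadjusted p below 0.05 and DESeq2 on all libraries called 5463. With low preparation replicates 2 and 3 both left out, an alternative added after the data were seen in which the remaining library is assumed to vary like the standard ones, 7849 passed. The rises with the smallest adjusted p were Id2, Rps27 and Cggbp1 (log2 fold changes 2.16, 2.54 and 1.63). Among the falls 83 genes shared the smallest adjusted p, Dchs2, Gria3 and 4932438A13Rik among them (-2.27, -2.88 and -2.15). The Y-linked genes Ddx3y, Eif2s3y, Kdm5d and Uty, looked at after the values were seen, had 14 to 26 counts together in the standard and 140 to 3655 in the low preparation RNA-seq libraries, and 773 to 2867 in the 6 pellet libraries, where none of the 4 passed. The standard FMR1 KO RNA-seq thus nearly lacked Y-linked RNA that the pellets held, and its part in the RNA-seq values was not tested. Gria3, an AMPA receptor subunit, had 4.90, 5.97 and 5.02 CPM in the standard and 31.8, 48.6 and 36.5 CPM in the low preparation RNA-seq.

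Calls in the RPFs were also set beside those in RNA-seq, where 7.45% of all genes were higher and 14.7% lower. Of 1044 genes that rose in the RPFs and had an RNA-seq value, 528 had the same sign there, 90 were called in the same and 92 in the opposite direction. Of 1364 genes that fell in the RPFs and had an RNA-seq value, 759 had the same sign, 307 were called in the same and 111 in the opposite direction. In the RNA-seq the medians were -2.33 for channels and pumps, -2.46 for adhesion receptors and -0.86 for postsynaptic genes, against -1.04, -0.77 and -0.77 in the RPFs. Other lists differed in sign, with -0.61 against 0.32 for motor proteins and -0.53 against 0.38 for the giant proteins. For ribosomal proteins the medians were 1.05 against 0.05, and for histones 2.42 against 0.31. Dync1h1 is an example of opposite calls, at 1.72 in the RPFs and -2.57 in the RNA-seq. For Shank3 and Stx1a the RNA-seq values were -0.55 and -0.43 and did not pass. The part of the RNA-seq libraries that stood apart in these values was not tested.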

How the data were processed

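RPFs of the pellet were analysed in 3 standard and 3 low nuclease FMR1 KO libraries, with 18 further libraries for comparison. The authors made the deposited counts with Cutadapt 2.10, Bowtie2 2.3.5, STAR 2.7.8a on GRCm38, Picard, SAMtools 1.19.2 and featureCounts 2.2.0, and these are whole numbers per gene without normalization. Reads on rRNA and other non-coding RNA were removed before alignment, and duplicates marked by Picard were removed after it, which can lower counts where many reads are alike. Intervals cover counting error only. The authors called peaks per library, and the deposited peak heights are coverage signal not scaled between libraries.

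Protein-coding genes (GENCODE M21 biotypes) without Cdk8 were filtered by filterByExpr, scaled by TMM and tested by the quasi-likelihood test of edgeR 4.0.16 in R 4.3.3 (limma 3.58.1), 3 libraries against 3, or as interactions over 12 libraries, with Benjamini-Hochberg adjustment and a threshold of 0.05. Standard errors are the log2 fold change divided by the root of F. Matches to ribosomal RNA used BLAST 2.17.0 (30 nt, 90% identity). On simulated data, 200 of the 14515 genes of the main comparison were changed. Of those changed by 1 on the log2 scale 6% were recovered, and of those changed by 2, 69%. The adjustment depends on how many genes change, and 2457 passed in the data, so these shares do not carry over to it. Alternatives were library size alone, DESeq2 1.42.0, other filters, other gene sets, a replicate block, fits over more libraries and fits without single libraries. Replicate numbers did not pair the preparations (correlations of deviations 0.051, 0.021 and -0.032).

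Genes named were the 6 largest rises and falls and the 4 smallest adjusted p in each direction among called genes with libraries that do not overlap and a mean of at least 10 CPM, then Fmr1, Cdk8, Map1b, Tubb2b, Fxr1 and Fxr2, up to 4 most abundant members of each list, and the 3 smallest adjusted p per direction in the other comparisons. The members and lists were chosen with earlier results of these data known. The Shah, Maurin and Darnell lists are published mRNA lists that the study compared its data with. Fragment lengths were not analysed here. Some genes that the rule takes are not reported here.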

Additional observations from a re-analysis of the deposited data

Results flagged for a closer look

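In the test of the genotype difference, Ppil1 differed by 3.11 on the log2 scale. It was high in the standard FMR1 KO pellet libraries and at a like low level in the other 9 pellet libraries. Ankrd6 differed by 3.74 in the same test, where the high libraries were the low nuclease WT ones and the FMR1 KO libraries of both preparations were at 13.2 CPM or less. In the test of pellet against fraction 5/6, Cers2 differed by 7.43, high in the standard FMR1 KO pellet libraries. It was also at 149 CPM in standard WT pellet replicate 1, against 1.43 and 2.73 CPM in replicates 2 and 3.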

How the results depend on the processing

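For the FMR1 KO pellet, 2457 genes passed, against 4036 with library size alone, 4236 with DESeq2, 4402 with the spread of all 12 pellet libraries, 3712 with that of all 12 FMR1 KO RPF libraries and 778 among genes with a peak in all 3 standard libraries (chosen after seeing the data). Leaving out libraries gave 144 to 4528, the lowest without replicate 3 of both preparations and the highest without low nuclease replicate 1. The other filters and gene sets gave 2228 to 2469. The genotype difference passed in 2 genes, in 5 with library size alone, in 91 with DESeq2 and in 10 to 21 without a replicate number. The difference between pellet and fraction 5/6 passed in 1 gene, in 58 with DESeq2 and in 2 to 15 without a replicate number. The RNA-seq gave 3603 genes, 9 with library size alone (median of all genes 1.48 in place of -0.056), 5463 with DESeq2, 0 to 3768 without a replicate number and 7849 with low preparation replicates 2 and 3 left out. Fxr1 and Fxr2 turned to -0.02 and -0.01 with library size alone. Of 2882 values of named genes under alternatives, 226 lost and 77 gained a call, 2 reversed (those of Fxr1 and Fxr2) and 110 changed sign without a call in either fit. The causes were not tested. On simulated data with 200 changed genes, changes of 1 on the log2 scale were mostly missed. In the data 2457 genes passed, which sets another cut-off, so that share does not carry over to these calls.

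With the replicate block, 783 genes passed in the FMR1 KO pellet (298 higher and 485 lower), 3 for the genotype difference, 1 for the difference between pellet and fraction 5/6 and 2413 in the RNA-seq. Between the preparations same-numbered FMR1 KO pellet libraries did not deviate together, so the numbers are not known to pair the preparations. Between pellet and fraction 5/6 the correlations of same-numbered libraries were 0.365, 0.155 and 0.065 in the low nuclease and 0.021, 0.142 and 0.18 in the standard preparation.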
